A study of Mus musculus with 12 samples.

Results

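The 5 genes described here are Slc5a3, its genomic neighbour Mrps6, the transcription factor gene Nfat5 and 2 further genes that NFAT5 is known to drive, Slc6a6 and Akr1b3. They are 5 of the 23893 gene symbols counted by RNA-seq in mouse cortical neuron cultures. Slc5a3 was chosen by its measured difference between topotecan and vehicle in cultures given CRE to delete Top1. The other 4 were taken for their position next to Slc5a3 or their known link to it, with results of these counts already known. For these 5 genes, differences that involve a culture given CRE are therefore a description, as are the counts of calls among them, and an adjusted p is given only for topotecan against vehicle in cultures that kept Top1.

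The cultures came from embryonic cortex of mice with the strain label C57BL6, and the growth protocol names C57BL6/J females. The labels call the controls wild-type, and by the study's methods all cultures were Top1 fl/fl, with an allele from which CRE removes an exon. At day 3 in vitro they received lentivirus carrying either tdTomato alone (WT) or tdTomato-P2A-CRE (Top1 cKO), both driven by the CaMKIIα promoter, which limits expression to neurons and leaves other cells of the dish with Top1. At day 15 in vitro each culture was given 300 nM topotecan in 0.003% DMSO (Topot) or 0.003% DMSO alone (Veh), and RNA was taken 3 days later. Topotecan is a drug that traps topoisomerase 1, the enzyme that relieves DNA supercoils, on DNA. Each genotype thus has a vehicle and a topotecan group (WT-Veh and WT-Topot for tdTomato, Top1 cKO-Veh and Top1 cKO-Topot for CRE), with 3 cultures in each of the 4.

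Cells that face a concentrated medium take up small organic solutes, called osmolytes, so that they keep their volume without raising their salt content. NFAT5, also called TonEBP, is a transcription factor of the Rel family that switches on the genes for this response. Its known targets include Slc5a3, the sodium-coupled transporter that brings in myo-inositol, Slc6a6, the taurine transporter, and Akr1b3, the aldose reductase that makes sorbitol from glucose. Myo-inositol and taurine are among the main osmolytes of brain cells, and myo-inositol is also a precursor of phosphoinositide lipids. MRPS6 is a protein of the small subunit of the mitochondrial ribosome and has no known part in osmolyte handling.

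Slc5a3 (ENSMUSG00000089774.1) lies at chr16:92058567-92087718 on the plus strand of the mm9 build, inside Mrps6 (ENSMUSG00000039680.8, chr16:92058515-92112472, plus strand). In the GENCODE annotation of that build the Slc5a3 transcript has 2 exons. The first has 159 bases, all within the 211-base first exon of Mrps6. The second has 10754 bases, holds 98.5% of the transcript and lies in the first intron of the main Mrps6 transcript, although 1 other Mrps6 transcript takes up 537 bases of it. Gm16309, annotated as a processed transcript on the same strand, spans 5747 exon bases of Slc5a3. The main Mrps6 transcript goes on to exons of 140 and 495 bases further along. The exon bases shared by the 2 main transcripts make up 1.46% of Slc5a3 and 18.8% of Mrps6.

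**Figure D1:**
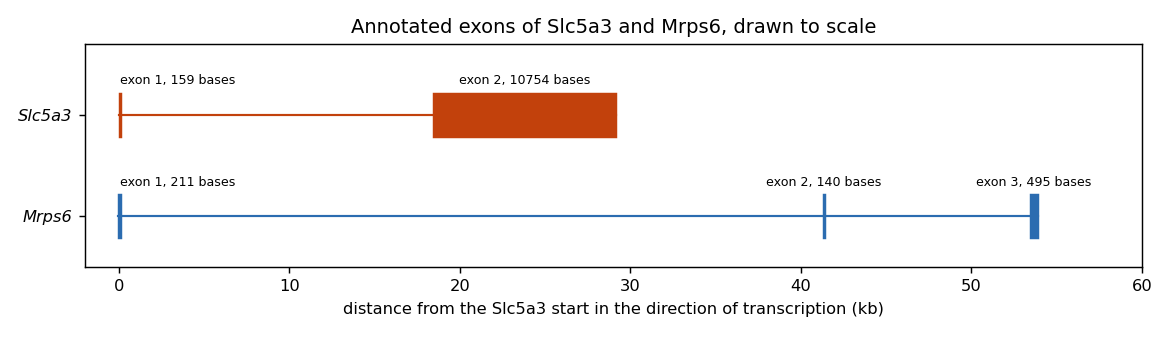
Exons of Slc5a3 (top) and Mrps6 (bottom) as boxes and introns as lines, drawn to scale against the distance in kb from the Slc5a3 start in the direction of transcription. The first exons overlap at the left edge, and the 10754-base exon of Slc5a3 falls in the long first intron of Mrps6.

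The sequences just upstream of Slc5a3 and Nfat5 are shown because these genes had the largest log2 fold changes of the 5 for topotecan in Top1 cKO cells, and that of Slc5a3 also because it is the upstream sequence of Mrps6. They are the 250 bases before the annotated start in RefSeq on the GRCm38.p6 build, a later build than that of the count table. The Slc5a3 sequence is chr16:92058072-92058321 (plus strand) and the Nfat5 sequence is chr8:107293220-107293469 (plus strand). Capitals mark the letters GGGCGG, the GC box bound by Sp-family factors, on either strand, and 2 overlapping copies form the longest capital run.
Slc5a3: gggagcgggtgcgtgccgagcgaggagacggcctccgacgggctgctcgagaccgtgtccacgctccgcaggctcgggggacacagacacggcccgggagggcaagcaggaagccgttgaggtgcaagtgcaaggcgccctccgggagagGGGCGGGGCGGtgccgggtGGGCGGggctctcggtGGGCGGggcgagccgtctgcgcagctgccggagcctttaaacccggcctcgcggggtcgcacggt
Nfat5: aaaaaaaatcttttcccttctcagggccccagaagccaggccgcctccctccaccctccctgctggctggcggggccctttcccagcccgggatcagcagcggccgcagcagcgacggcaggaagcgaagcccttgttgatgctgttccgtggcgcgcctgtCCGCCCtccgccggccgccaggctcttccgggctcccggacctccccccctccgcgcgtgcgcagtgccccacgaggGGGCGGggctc
In this annotation the starts of Slc5a3 and Mrps6 are 14 bases apart, so that their 300-base windows (250 bases before to 50 after the start) share 286 bases. GGGCGG occurs 4 times in the windows of Slc5a3 and Mrps6 and 2 times in that of Nfat5, and at least once in 35.7% of 32851 promoter windows. The letters TGGAAA, the core of the tonicity element that NFAT5 binds, were in none of the 3 windows on either strand and in 21.4% of all windows, which says nothing of sites elsewhere. Slc6a6 (ENSMUSG00000030096.7) lies at chr6:91634061-91709057 on the plus strand, Akr1b3 (ENSMUSG00000001642.11) at chr6:34253934-34267497 on the minus strand and Nfat5 (ENSMUSG00000003847.9) at chr8:109817370-109903417 on the plus strand, all on mm9.

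The libraries held 1730164 to 4583777 counts. Levels are in CPM, counts as parts of 1000000 of the library total, after TMM scaling, which adjusts for differences in composition between libraries. Top1 itself ranged from 117 to 164 CPM where tdTomato alone was given (6 libraries) and from 27.1 to 43.97 CPM with CRE (6 libraries). Top1 RNA was thus reduced with CRE but not absent. The study holds that residual TOP1 protein most likely comes from uninfected neurons, non-neuronal cells or both. The sum of 8 neuron markers, among them Tubb3 and Map2, was 5980 to 7980 CPM over all libraries. The sum of 8 astrocyte markers was 2370 to 4830 CPM with vehicle and 1090 to 1840 with topotecan in WT cultures, and 2680 to 6140 with vehicle and 1690 to 3110 with topotecan in Top1 cKO cultures, so the cultures were not neurons alone. In WT-Topot against WT-Veh edgeR called 3 of the 8 astrocyte markers, all lower (Gfap -2.54 ± 0.37, Slc1a3 -1.52 ± 0.27 and Slc1a2 -1.39 ± 0.20), and 1 neuron marker, Rbfox3, also lower (-0.96 ± 0.18). In Top1 cKO-Topot against WT-Topot it called Slc1a2, Rbfox3, Snap25 and the mural marker Rgs5 as higher (1.17 ± 0.17, 0.99 ± 0.17, 1.06 ± 0.17 and 1.74 ± 0.36) and the neuron marker Slc17a7 as lower (-0.80 ± 0.14). The sums of 6 microglia markers and of 5 proliferation markers stayed at or below 7.90 and 5.18 CPM. The 6 oligodendrocyte lineage markers summed to 67.1 to 143 CPM, and the 5 endothelial and mural markers to 9.45 to 43.0 CPM, with Cldn5 at 0 in all libraries of 3 groups. In bulk RNA, fewer cells of a type and less RNA per cell cannot be told apart.

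Slc5a3 was highest in Top1 cKO-Topot, where each library lay above every library of the other groups. Its 3 WT-Veh libraries had 115, 68.8 and 84.7 CPM. The WT-Topot libraries had 118, 109 and 97.6 CPM. The Top1 cKO-Veh libraries had 112, 104 and 92.2 CPM, so these 3 groups overlapped one another. The Top1 cKO-Topot libraries had 236, 208 and 174 CPM, with no overlap. From the lowest mean up, the order was WT-Veh with 89.5 ± 23.5 CPM, Top1 cKO-Veh with 103 ± 10.1, WT-Topot with 108 ± 10 and Top1 cKO-Topot with 206 ± 30.9 (SD, n = 3 each), and the first 3 did not differ beyond their spread.

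**Figure D2:**
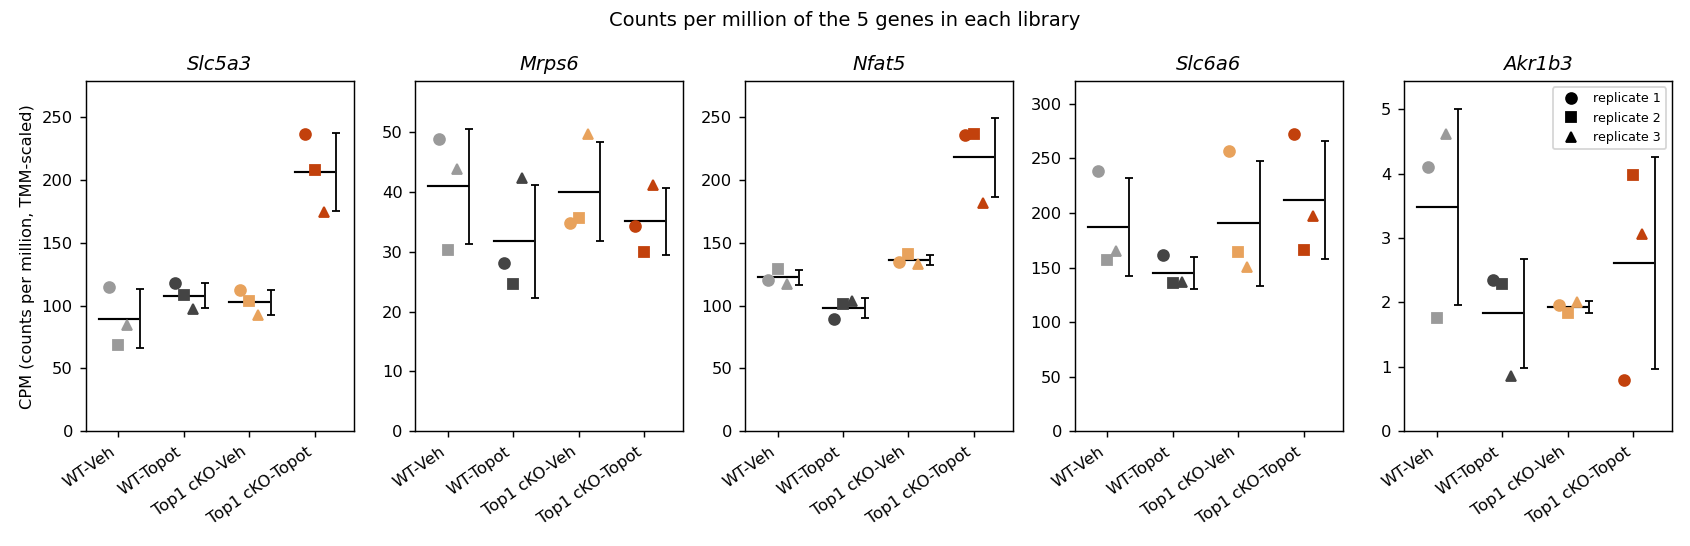
CPM of the 5 genes (y axis of each panel, from 0, with its own scale) in the 4 groups. Symbols are single libraries, the shape gives the replicate number, horizontal lines are means and error bars are SDs over 3 libraries. Slc5a3 and Nfat5 stand above all other groups in Top1 cKO-Topot, Mrps6 and Slc6a6 overlap between vehicle and topotecan in both genotypes, and Akr1b3 stays under 5 CPM.

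Topotecan against vehicle in Top1 cKO cells gave a log2 fold change of 1.01 ± 0.17 for Slc5a3 (edgeR, SE), a 2.02-fold difference. The 3 pairs of cultures with the same replicate number gave log2 ratios of 1.07, 1.00 and 0.92, close to one another although the first vehicle library was itself the highest of its group. Of 9507 genes averaging 10 CPM or more, 22 had a higher log2 fold change in this comparison. In WT cells the same comparison gave 0.27 ± 0.20 (edgeR quasi-likelihood test, adjusted p = 0.748, all 3 pairs higher, groups overlapping). The difference between the genotypes in the effect of topotecan was 0.74 ± 0.27 on the log2 scale. Top1 cKO-Veh against WT-Veh gave 0.20 ± 0.21, and Top1 cKO-Topot against WT-Topot gave 0.93 ± 0.17. In the same Top1 cKO comparison with topotecan, the astrocyte marker sum went the other way, with its median at 2500 CPM against 3810 in vehicle, and its part in the Slc5a3 difference was not tested.

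Mrps6, which shares its start region with Slc5a3, overlapped between all groups. Its libraries had 48.9, 30.2 and 43.8 CPM in WT-Veh and 28.2, 24.6 and 42.4 in WT-Topot. They had 34.8, 35.7 and 49.6 CPM in Top1 cKO-Veh and 34.3, 29.9 and 41.1 in Top1 cKO-Topot. No group stood apart. Topotecan against vehicle gave -0.37 ± 0.26 in WT cells (edgeR, adjusted p = 0.696) and -0.17 ± 0.24 in Top1 cKO cells, and the difference of these effects was 0.20 ± 0.36. Of 27 other genes for proteins of the small mitochondrial ribosomal subunit, edgeR called 0 in any of the 5 comparisons. In each, 1 to 3 had an unadjusted p under 0.05. Over all genes the shares called were 0.00837% to 2.72%.

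The ratio of Slc5a3 to Mrps6 counts within a library needs no scaling between libraries. The ratio was 2.35, 2.28 and 1.93 in WT-Veh and 4.18, 4.42 and 2.30 in WT-Topot. It was 3.22, 2.90 and 1.86 in Top1 cKO-Veh and 6.90, 6.96 and 4.24 in Top1 cKO-Topot. The means were 2.19 ± 0.225, 3.63 ± 1.16, 2.66 ± 0.711 and 6.03 ± 1.55 (SD, n = 3). In both genotypes each topotecan library had a higher ratio than the vehicle library with its replicate number, and replicate 3 was the lowest of its group in all 4 groups. Reads from the shared first exon could be counted for either gene. With even coverage of the Slc5a3 transcript, 23.6 of the 1618 Slc5a3 counts of the Top1 cKO-Topot libraries would lie in that exon, beside 270 counts of Mrps6.

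**Figure D3:**
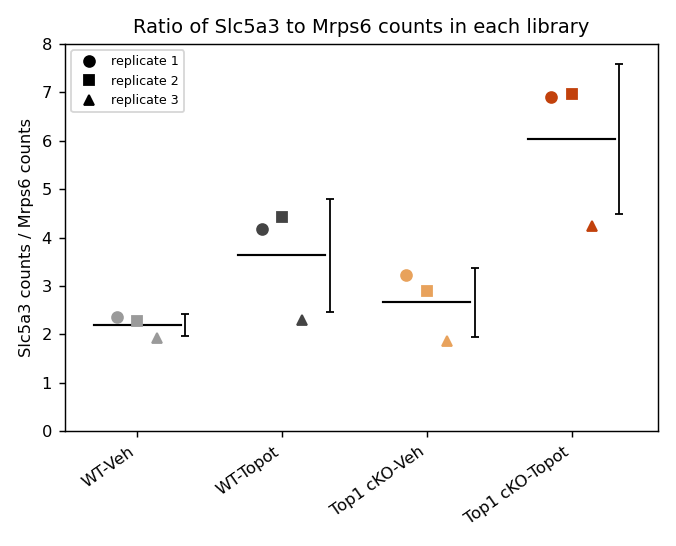
Slc5a3 counts divided by Mrps6 counts (y axis, no unit, from 0) in each library of the 4 groups, with means as lines and SDs over 3 libraries as error bars. Top1 cKO-Topot has the highest mean, 6.03, and the third replicate of that group, 4.24, lies below one WT-Topot library at 4.42.

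Per length the order of these neighbours was the reverse of their counts. In CPM per kb of transcript (RPKM), Slc5a3 had 8.20 ± 2.15 in WT-Veh and 18.9 ± 2.83 in Top1 cKO-Topot, whereas Mrps6 had 48.4 ± 11.4 and 41.5 ± 6.67. Slc6a6 lay between them, at 30.3 ± 7.25 RPKM in WT-Veh and 34.3 ± 8.80 in Top1 cKO-Topot. Nfat5 was near Slc5a3, at 9.14 ± 0.442 and 16.3 ± 2.32 RPKM, and the ranges of these 2 genes overlapped in both groups. Akr1b3 was the lowest, at 2.48 ± 1.08 and 1.86 ± 1.17 RPKM. The lengths are those of single GENCODE transcripts, whereas the counts were made over RefSeq exons.

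Nfat5, the gene of the regulator, was also highest in Top1 cKO-Topot, and lowest in WT-Topot. Its libraries had 121, 129 and 118 CPM in WT-Veh and 89.1, 102 and 104 in WT-Topot, which did not overlap. They had 135, 141 and 133 CPM in Top1 cKO-Veh, just above all WT-Veh libraries. They had 235, 236 and 182 CPM in Top1 cKO-Topot, above every other library. Means were 122 ± 5.88, 98.1 ± 7.85, 136 ± 4.05 and 218 ± 31.1 CPM (SD, n = 3). Each group of Nfat5 libraries thus stood apart from each other group, with the smallest gap between the vehicle groups.

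Topotecan against vehicle gave -0.31 ± 0.18 for Nfat5 in WT cells, lower in 3 of 3 pairs but not past the threshold (edgeR, adjusted p = 0.546). In Top1 cKO cells it gave 0.69 ± 0.17, higher in 3 of 3 pairs, with 102 of 9507 genes above it. The difference of these effects was 1.00 ± 0.22. Top1 cKO-Topot against WT-Topot gave 1.15 ± 0.18, a 2.21-fold difference, and Top1 cKO-Veh against WT-Veh gave 0.16 ± 0.17. The ratio of Slc5a3 to Nfat5 counts in Top1 cKO cells was 0.694 to 0.832 with vehicle and 0.880 to 1.00 with topotecan, and in WT cells 0.534 to 0.954 and 0.942 to 1.32. Across the 12 libraries the log2 levels of the 2 genes had a Pearson r of 0.77, which fell to 0.13 once each group's mean was taken out, so most of it lay between the groups.

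**Figure D4:**
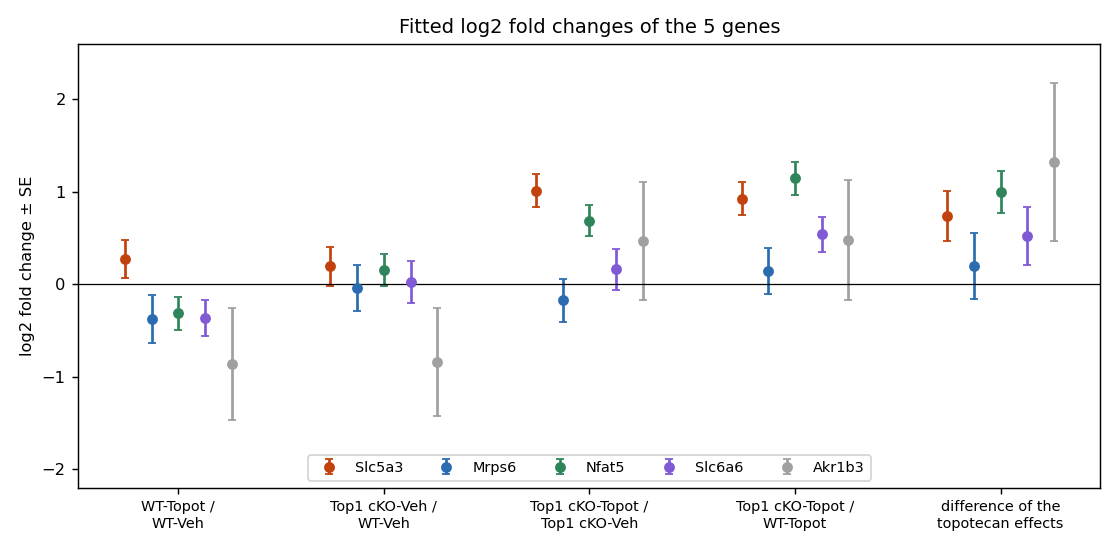
Log2 fold changes (y axis) of the 5 genes in the 4 pairwise comparisons and for the difference between the topotecan effects in Top1 cKO and WT cells, from edgeR fits, with SEs as error bars. Slc5a3 and Nfat5 lie between 0.69 and 1.15 in the comparisons of Top1 cKO-Topot, Mrps6 stays within 0.37 of 0, and Akr1b3 has the widest errors.

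Slc6a6, the taurine transporter, varied widely between cultures of a group. Its libraries had 238.5, 157 and 165 CPM in WT-Veh and 162, 136 and 137 in WT-Topot. They had 256.5, 165 and 150.3 CPM in Top1 cKO-Veh and 272, 166 and 197 in Top1 cKO-Topot, and replicate 1 was the highest in every group. Topotecan against vehicle gave -0.36 ± 0.19 in WT cells (edgeR, adjusted p = 0.484, lower in 3 of 3 pairs) and 0.16 ± 0.22 in Top1 cKO cells. Top1 cKO-Topot against WT-Topot gave 0.54 ± 0.19, and these groups did not overlap. With each group's mean taken out, Slc6a6 and Slc5a3 levels had a Pearson r of 0.74 over 12 libraries, and 0.51 with the group means left in. Libraries with the same replicate number were paired, so the 12 are not independent.

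Akr1b3 had 2 to 14 counts per library and cannot carry a comparison. Its means with vehicle and topotecan were 3.49 ± 1.52 and 1.83 ± 0.844 CPM in WT cells and 1.93 ± 0.0887 and 2.61 ± 1.64 CPM in Top1 cKO cells. Topotecan against vehicle in WT cells gave -0.86 ± 0.60 (edgeR, adjusted p = 0.705). Of the 50-base windows of its transcript, 85.0% have an exact copy elsewhere in the mm9 genome, and 3 other loci match it at 95% identity or more, the best at 99.7%. No such window was found for Slc5a3, Mrps6 or Slc6a6, and for Nfat5 the share was 0.4%. How reads with several matches were counted is not given in the sources used here, so Akr1b3 counts are uncertain. The span of Gm14546 also covers its exons on the opposite strand.

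Over all genes, edgeR called 2.72% of 23893 in WT-Topot against WT-Veh at an adjusted p under 0.01, and 0 of the 5 genes, of which 0 had an unadjusted p under 0.05 and DESeq2 called 0. It called 0.172% in Top1 cKO-Veh against WT-Veh and 0 of the 5, also with DESeq2 and with 0 at an unadjusted p under 0.05. It called 0.00837% of genes for topotecan against vehicle in Top1 cKO cells and 0 of the 5, where 2 had an unadjusted p under 0.05 and DESeq2 called 1. It called 2.49% in Top1 cKO-Topot against WT-Topot with 2 of the 5 (Slc5a3 and Nfat5, both higher). It called 0.435% for the difference of the topotecan effects with 0 of the 5, where 2 had an unadjusted p under 0.05 and DESeq2 called 1. With the replicate number as a block, which the libraries bear out as a pairing, the shares of all genes were 8.25%, 5.56%, 2.59%, 8.69% and 3.97% in the same order. The 5 genes then had 0, 0, 2, 3 and 2 calls, namely Slc5a3 and Nfat5 in each of the last 3 comparisons and Slc6a6 in Top1 cKO-Topot against WT-Topot. Apart from WT-Topot against WT-Veh, these counts include the values by which Slc5a3 was picked and are a description.

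The groups did not overlap for 1 of the 5 genes in WT-Topot against WT-Veh (Nfat5, lower), as for 26.0% of the 13720 genes averaging 1 CPM or more. This held for 1 in Top1 cKO-Veh against WT-Veh (Nfat5, higher), beside 19.9% of genes. It held for 2 (Slc5a3 and Nfat5) in Top1 cKO-Topot against Top1 cKO-Veh, beside 11.7%, and for 3 in Top1 cKO-Topot against WT-Topot (those and Slc6a6), beside 27.4%.

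Other osmolyte genes had mixed values. A list of 19 osmolyte genes held mostly genes for myo-inositol, sorbitol, taurine, betaine or glycerophosphocholine. It also held genes less directly tied to these, such as the neutral amino acid transporter Slc38a2. Of the 19, 15 averaged 1 CPM or more. In Top1 cKO-Topot against Top1 cKO-Veh edgeR called 0 of the 19, beside 0.00837% of all genes. There 4 of the 15 were above 0, with a median log2 fold change of -0.16, beside 0.00 over all genes. In WT-Topot against WT-Veh 1 rose and 1 fell, with a median of 0.15 beside 0.03 over all genes. Over the osmolyte list, 9 further tonicity genes and 17 genes of cell volume control, 45 in all, edgeR called 0 of them for topotecan in Top1 cKO cells (5 at an unadjusted p under 0.05, 0 by DESeq2) and 0 in Top1 cKO-Veh against WT-Veh (9 at an unadjusted p under 0.05, 3 by DESeq2). With the replicate block 2 and 5 of the 45 were called in these comparisons. Over all genes edgeR called 0.00837% and 0.172% in them, and 2.59% and 5.56% with the block. DESeq2 called 53 and 223 of all 23893 genes in them. The classic betaine transporter of this response, Slc6a12, had at most 1 count in any library, and the second myo-inositol cotransporter, Slc5a11, likewise.

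The genes of myo-inositol had other patterns than Slc5a3. Slc2a13, the proton-coupled myo-inositol transporter, fell in WT cells with topotecan, from 156 ± 21.8 CPM in WT-Veh to 45.4 ± 8.29 in WT-Topot (log2 fold change -1.77 ± 0.20, edgeR, adjusted p = 1.19e-05). In Top1 cKO cells it had 105 to 137 CPM with vehicle and 84.4 to 121 with topotecan (-0.23 ± 0.19, edgeR, adjusted p = 1). It was higher in Top1 cKO-Topot than in WT-Topot (1.14 ± 0.21, edgeR, adjusted p = 0.00108, and 0.0142 without Top1 cKO-Topot replicate 2). The difference of the effects passed the test (1.54 ± 0.27, edgeR, adjusted p = 0.00588), but not without any 1 of 7 single libraries, where the adjusted p reached 0.019. Isyna1, the synthase that makes myo-inositol phosphate from glucose 6-phosphate, was lower in Top1 cKO-Topot, at 4.15 ± 0.595 CPM, than in WT-Topot, at 13.4 ± 1.23 (-1.70 ± 0.37, edgeR, adjusted p = 0.00583, and up to 0.0312 with 1 library left out). With vehicle it had 4.49 ± 1.58 CPM in Top1 cKO and 9.69 ± 2.42 in WT cells, without overlap but not called (-1.13 ± 0.42, edgeR, adjusted p = 0.363). Impa1, the phosphatase that frees myo-inositol, gave 0.28 ± 0.18 with topotecan in Top1 cKO cells, with an adjusted p of 1.

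Among genes of other osmolytes, Cdo1, the dioxygenase that starts taurine synthesis from cysteine, rose in WT cells with topotecan from 19.2 ± 4.38 to 57.5 ± 7.00 CPM (1.57 ± 0.24, edgeR, adjusted p = 0.000254). In Top1 cKO cells it had 29.5 ± 1.81 and 23.2 ± 4.62 CPM, and the difference of the effects was -1.90 ± 0.33 (edgeR, adjusted p = 0.00462, and up to 0.0155 with 1 library left out). Cdo1 was lower in Top1 cKO-Topot than in WT-Topot (-1.31 ± 0.23, edgeR, adjusted p = 0.00081). Sord, which oxidises sorbitol to fructose, had 50.2 ± 7.89 CPM in WT-Veh and 42.1 ± 3.01 in WT-Topot, and 19.4 ± 5.58 and 17.9 ± 6.17 in the Top1 cKO groups. It was lower in Top1 cKO-Topot than in WT-Topot (-1.25 ± 0.26, adjusted p = 0.00457), a call that is lost when genes with low counts are left out (adjusted p = 0.015) and without Top1 cKO-Topot replicate 2 (adjusted p = 0.037). Slc38a2, a neutral amino acid transporter that responds to tonicity, had 171 ± 31.4 CPM with vehicle and 92.5 ± 17 with topotecan in WT cells, and 68.6 ± 16.7 with vehicle and 128 ± 36.2 with topotecan in Top1 cKO cells. Its difference of the effects was 1.80 ± 0.33 (adjusted p = 0.00634), also lost with that filter (adjusted p = 0.0158) and with 1 of several libraries left out (up to 0.0194).

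**Figure D5:**
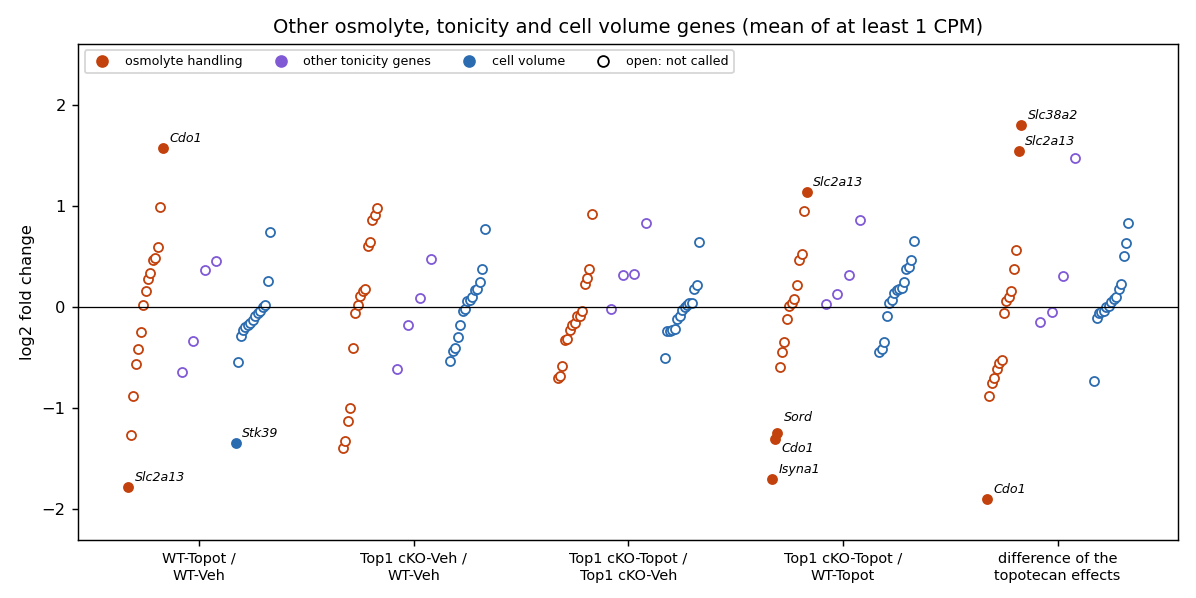
Log2 fold changes (y axis) of the other osmolyte, tonicity and cell volume genes averaging 1 CPM or more in the same 5 comparisons, 1 point a gene, sorted within each list. Filled points passed an adjusted p of 0.01 and are named, and there are none in Top1 cKO-Veh against WT-Veh or in Top1 cKO-Topot against Top1 cKO-Veh.

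Of the 9 further tonicity genes, 4 averaged 1 CPM or more and edgeR called 0 in all 5 comparisons, beside 0.00837% to 2.72% of all genes. In each, 1 or 2 had an unadjusted p under 0.05 and DESeq2 called 0. Hspa4l, a heat shock protein gene induced by high tonicity, had 74.3 ± 2.12 CPM with vehicle and 102 ± 15.3 with topotecan in WT cells, and 103 ± 16 and 127 ± 30 in Top1 cKO cells. Sgk1, a kinase gene of the same kind, had 41.6 ± 4.92 and 53.5 ± 7.45 CPM in WT cells and 44.1 ± 7.08 and 55.01 ± 8.91 in Top1 cKO cells. Hspa1b, a heat shock gene with a near-identical neighbour, Hspa1a, that may take some of its reads, had 4.30 to 13.99 CPM over the Top1 cKO libraries. Of the 17 cell volume genes, Stk39, a kinase that acts on chloride cotransporters, fell in WT cells with topotecan, from 62.4 ± 2.32 to 24.6 ± 7.51 CPM (-1.34 ± 0.24, edgeR, adjusted p = 0.00147), and edgeR called no other of the 17 in any of the 5 comparisons. In Top1 cKO-Topot against Top1 cKO-Veh the 15 of them with at least 1 CPM had a median of -0.03.

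Of 11 relatives of the 5 genes (other NFAT factors, aldo-keto reductases and Slc6 transporters), edgeR called 1, Nfatc2, which encodes a calcium-regulated NFAT factor. It had 10.6 ± 0.700 and 9.35 ± 2.08 CPM in WT-Veh and WT-Topot and 26.4 ± 2.75 and 35.9 ± 7.67 in the Top1 cKO groups. It was higher in Top1 cKO-Topot than in WT-Topot (1.95 ± 0.29, edgeR, adjusted p = 0.000122). Over all genes edgeR called 2.49% in that comparison, and 0.00837% to 2.72% over the 5 comparisons. Of 10 other Slc5a cotransporter genes, 4 averaged 1 CPM or more, and 1 was called. This was Slc5a5, the sodium iodide symporter, lower in Top1 cKO-Topot than in WT-Topot (-2.71 ± 0.59, edgeR, adjusted p = 0.00598), which rests on 8 counts in Top1 cKO-Topot and is lost with the filter (adjusted p = 0.0141) and by DESeq2 (adjusted p = 0.0132).

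Slc5a3 was chosen by its difference between Top1 cKO-Topot and Top1 cKO-Veh, and 22 of 9507 genes lay above it in that comparison. Smaller differences of the genes around it are thus largely set by that choice, and their values are a description. Within 500 kb on mm9, 26 other genes are annotated, 17 are in the count table and 14 average 1 CPM or more, Mrps6 among them. Of the other 13, edgeR called 0 for topotecan in Top1 cKO cells, beside 0.00837% of all genes and 0 of the 5 genes. There the 9 averaging 10 CPM or more had log2 fold changes from -0.45 to 0.19. Of the 4 with lower levels, Kcne2, a potassium channel subunit gene averaging 1.09 CPM, gave 1.45 ± 1.12, above the value of Slc5a3. Clic6, of the chloride intracellular channel family and averaging 6.49 CPM, gave 0.94 ± 0.63, just below it. Both had wide errors. Itsn1, an endocytic scaffold gene 138 kb away, gave 0.19 ± 0.20, and Rcan1, a calcineurin regulator gene 304.5 kb away, gave 0.02 ± 0.19. One gene was called elsewhere. Ifngr2, an interferon gamma receptor gene 493 kb away, rose in WT cells with topotecan (0.92 ± 0.18, edgeR, adjusted p = 0.00386) and was lower in Top1 cKO-Topot than in WT-Topot (-1.07 ± 0.18, adjusted p = 0.000593).

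The 5 genes whose levels were most like those of Slc5a3 over the 12 libraries, by Pearson r of log2(CPM + 1) among 9506 genes averaging 10 CPM or more, were Phlda3 (r = 0.92), Aen (0.91), Slc19a2 (0.91), Wdr35 (0.89) and Fbxo28 (0.89). Phlda3 and Aen are known p53 targets, Slc19a2 is a thiamine transporter, Wdr35 a part of the intraflagellar transport machinery and Fbxo28 an F-box protein. Phlda3 had 63.1 ± 28.1 CPM with vehicle and 99.6 ± 22.9 with topotecan in WT cells, and 83.9 ± 10.2 and 173 ± 46.6 in Top1 cKO cells. Slc19a2 had 35.01 ± 4.26 and 54.4 ± 5.91 CPM in WT cells and 43.9 ± 1.72 and 74.8 ± 4.38 in Top1 cKO cells. In all 5 the Top1 cKO-Topot libraries lay above the Top1 cKO-Veh libraries, which follows largely from picking them for likeness to Slc5a3. Of all genes averaging 1 CPM or more, 11.7% did not overlap in that comparison, in either direction. Nfat5 was rank 74 in this order (r = 0.77), Slc6a6 rank 919 (r = 0.51) and Mrps6 rank 6155 (r = -0.16). The 12 libraries were paired by replicate number and are not independent, so these are descriptions.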

How the data were processed

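The authors used TagDust to filter reads and TopHat to place them on the mm9 genome, and deposited raw counts over RefSeq exons, summed per gene symbol, in 1 table of 23893 genes by 12 samples. An RPKM table was also deposited and was not used here. From the counts, edgeR 4.0.16 (R 4.3.3) was run with TMM scaling, no gene filter and the quasi-likelihood test, on the 6 libraries of each pairwise comparison and on all 12 for the difference of the topotecan effects, with Benjamini-Hochberg adjustment over all genes and a threshold of 0.01. The SE is the log2 fold change over the root of F. The fit was tested on simulated data, where it called more unchanged genes than the same fit with filterByExpr, which leaves out genes with low counts.

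The 5 genes and all gene lists (osmolyte handling, other tonicity genes, cell volume, relatives, Mrps and Slc5a genes, markers) were chosen with earlier results of these data known. Genes named are the 5, genes of the first 4 lists called in any comparison or otherwise the 3 of a list with the highest mean, called Mrps genes, the 5 most like Slc5a3, and genes within 500 kb. Slc6a12, Slc5a11, Slc5a5, Impa1 and the markers were named after their values were seen. Replicates are cultures. Replicate numbers paired the samples: deviations from group means correlated at 0.261 to 0.485 between libraries of the same number (18 pairs) and at -0.384 to -0.0494 between different numbers. Exons and copies came from GENCODE on mm9, upstream sequences from RefSeq, which matched 3 of the 5 genes. Alternatives were RLE size factors, filterByExpr, the replicate block, DESeq2 1.42.0, a fit on all 12 libraries, each library left out, and Slc5a3 and Mrps6 counts added. Depth of 1730164 to 4583777 counts limits genes with few counts, such as Akr1b3.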

Additional observations from a re-analysis of the deposited data

Results flagged for a closer look

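For 3 listed genes the effect of topotecan differed between Top1 cKO and WT cells in the test of the difference itself (edgeR, adjusted p under 0.01). The difference on the log2 scale was 1.54 for Slc2a13, 1.80 for Slc38a2 and -1.90 for Cdo1. With 1 library left out, the edgeR adjusted p reached 0.019 for Slc2a13, 0.0194 for Slc38a2 and 0.0155 for Cdo1. The call of Slc38a2 was also lost with filterByExpr. The lists were chosen with earlier results of these data known, which limits these p-values.

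For Nfat5 and Slc6a6, each culture pair was lower with topotecan in WT cells and higher in Top1 cKO cells. The Top1 cKO pairs of Slc6a6 had small log2 ratios of 0.085, 0.015 and 0.391. Its fitted value there, 0.16 ± 0.22, ran from -0.07 to 0.44 with 1 library left out. The difference between the genotypes on the log2 scale was 1.00 for Nfat5 and 0.52 for Slc6a6. It is given with no p, as a description, since the genes were chosen with these values known. At the 0.01 threshold edgeR called it for neither gene, while DESeq2 called Nfat5 and the replicate block called Nfat5 but not Slc6a6. Groups of 3 are too small for the search for single outlying libraries.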

How the results depend on the processing

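Of 300 recomputed values of the 5 genes, 289 kept the sign of the reported one. For Slc5a3 the range over all alternatives was 0.77 to 1.12 in Top1 cKO-Topot against Top1 cKO-Veh, 0.78 to 1.04 against WT-Topot and 0.10 to 0.49 in WT cells with topotecan. The lowest, 0.77, came from adding the Mrps6 counts to those of Slc5a3, which pools it with a gene whose groups overlapped. With the replicate block (the pairing of cultures), 8 of 45 listed genes were called in WT-Topot against WT-Veh in place of 3, 5 in Top1 cKO-Veh against WT-Veh in place of 0, 2 in Top1 cKO-Topot against Top1 cKO-Veh in place of 0, and 5 for the difference of effects in place of 3. Of the 5 genes, 2 were then called for topotecan in Top1 cKO cells and 2 for the difference of effects, in place of 0. Over all genes the shares called with the block, in the order given for the listed genes, were 8.25%, 5.56%, 2.59% and 3.97%. Without the block they were 2.72%, 0.172%, 0.00837% and 0.435%, so the rise was not particular to the listed genes. By DESeq2 5 listed genes were called in WT-Topot against WT-Veh and 3 in Top1 cKO-Veh against WT-Veh, and 1 of the 5 genes in Top1 cKO-Topot against Top1 cKO-Veh (Slc5a3) and 1 for the difference of effects (Nfat5). A fit on all 12 libraries called 1 listed gene in Top1 cKO-Veh against WT-Veh. With 1 library left out, the counts of listed genes ran from 0 to 2 in Top1 cKO-Veh against WT-Veh, from 1 to 4 in Top1 cKO-Topot against WT-Topot (1 without Top1 cKO-Topot replicate 2) and from 0 to 3 for the difference of effects (0 without WT-Topot replicate 3 or Top1 cKO-Topot replicate 1). The count of the 5 genes ran from 0 to 1 in Top1 cKO-Topot against Top1 cKO-Veh (1 without Top1 cKO-Veh replicate 1 or 3). Small differences changed sign with a library left out, for Isyna1 from -0.33 to 0.23 and for Sord from -0.33 to 0.18 for topotecan in Top1 cKO cells, and for Sord from -0.10 to 0.42 in the difference of effects. Of the 5 genes, Slc6a6 ran from -0.07 to 0.44 for topotecan in Top1 cKO cells. In Top1 cKO-Veh against WT-Veh, Slc6a6 ran from -0.26 to 0.24 and Mrps6 from -0.22 to 0.11. In Top1 cKO-Topot against WT-Topot, Mrps6 ran from -0.005 to 0.41. Akr1b3 reached 0 in that comparison and for topotecan in Top1 cKO cells. The cause of these changes was not tested. The counts of the 5 genes under alternatives were added after the data were seen. Without Top1 cKO-Topot replicate 2, Slc2a13, Isyna1 and Sord were no longer called in Top1 cKO-Topot against WT-Topot, with adjusted p of 0.0142, 0.0312 and 0.037. Over all genes, the counts called with filterByExpr were 479 in WT-Topot against WT-Veh in place of 651, 3 in Top1 cKO-Veh against WT-Veh in place of 41, 0 in Top1 cKO-Topot against Top1 cKO-Veh in place of 2, 371 in Top1 cKO-Topot against WT-Topot in place of 596 and 64 for the difference of effects in place of 104, and DESeq2 gave 841, 223, 53, 762 and 357. Depth limits Akr1b3 and other genes with few counts.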
